A study of Tupaia belangeri with 15 samples.

Results

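The gene annotation of the tree shrew (TS, Tupaia belangeri) names many loci after the same gene and tells them apart by a number. Of its 83605 features, 190 bear the name ZFP39 or VMN2R116, either plain or followed by li and a number, and all of them were taken: 51 copies of ZFP39 and 139 of VMN2R116. They were selected on their measured UMI levels, because several of them were higher in Mature and Senile than in Infancy retinas, so values and edgeR counts against Infancy describe that choice below, and nothing is read from them as a test. The data are UMIs, counts of single captured transcripts, from nuclei of 15 TS retinas in 3 stages of 5 animals each. Infancy animals were between 1.4 and 2.1 months old, Mature ones between 24.96 and 36 months and Senile ones between 85.8 and 86.56 months, and none had been treated. The 2 younger stages came from Kunming Medical University and the Senile animals from an institute of the Chinese Academy of Sciences, so age and source cannot be told apart in any comparison with the Senile stage.

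Zfp39 of the mouse belongs to the large family of zinc finger proteins, most of which bind DNA. Many of them carry a KRAB domain, through which they recruit TRIM28 and the histone methyltransferase SETDB1 to silence transposable elements. VMN2R116 takes its name from a mouse receptor of the V2R class, a group of G protein-coupled receptors of the vomeronasal organ that detect pheromones. These receptors signal through GNAO1 and the ion channel TRPC2. Both gene families are known for tandem duplication, and the retina is not a tissue in which vomeronasal receptors are known to act. Neither symbol was found in the RefSeq gene table of the TS assembly TupChi_1.0, and no sequence or length of the copies was at hand, so names are used as the files give them and levels are not compared between copies.

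The 15 libraries held between 13429873 and 58734300 UMIs in 4269 to 9856 barcodes, and 119765 of 120437 barcodes had more than 200 and fewer than 6000 detected genes and under 5% mitochondrial UMIs. Pairs of libraries shared between 4 and 30 barcodes. The copies together gave 9682 to 42242 UMIs in a retina. Libraries whose headers name Cell Ranger 6.1.2 (Infancy 1 to 3, Mature 1 and 2, Senile 1 and 2) stood apart from those naming 7.0.1, which is described with the sums below. Reads that match near-identical copies equally well cannot be placed, so the value of any single copy is uncertain, and reads lost in this way are missing from the sum over a symbol as well.

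Most ZFP39 copies were detected, whereas most VMN2R116 copies were not. Of the 51 ZFP39 copies, 48 had a UMI in some retina, 41 had one in all 15, and the symbol as a whole had 215900 UMIs. Of the 139 VMN2R116 copies, 94 had none in any retina, 27 had a UMI in all 15, and the symbol had 103897 UMIs. Among the 10269 numbered copies of other genes, 5557 had no UMI in the nuclei that met the limits above. The plain features ZFP39 and VMN2R116, without a number, had 0 UMIs in every retina. UMIs were concentrated in few copies of either symbol. ZFP39li30 held 17.2% of the ZFP39 UMIs and the 8 copies with the most UMIs held 66.4%, while VMN2R116li130 held 26.9% of the VMN2R116 UMIs and the leading 8 held 80.0%.

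Summed over its copies, ZFP39 lay higher in the Mature than in the Infancy retinas and higher again in the Senile retinas. Values are UMIs per 1000000 UMIs of the retina (counts per 1000000, CPM). In the 5 Infancy retinas the sum was 351, 327, 371, 289 and 305 CPM, in order of replicate. In the Mature retinas it was 540, 518, 366, 483 and 494 CPM. In the Senile retinas it was 772, 688, 586, 539 and 651 CPM. Infancy did not overlap with Senile and overlapped with Mature only through Mature 3, the lowest of its stage, which lay below the highest Infancy retina. Of the Senile retinas, 4 lay above every Mature one and Senile 4 lay just under Mature 1. The stage means were 329 ± 33.4, 480 ± 67.6 and 647 ± 90.6 CPM (SD, n = 5).

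The VMN2R116 sum had the same order with a wider spacing. The Infancy retinas held 124, 161, 129, 86.9 and 85.1 CPM. The Mature retinas held 356, 261, 191, 171 and 216 CPM. The Senile retinas held 424, 493, 386, 328 and 303 CPM. All Mature and Senile retinas lay above all Infancy retinas, and the Mature and Senile ranges overlapped through Mature 1 alone. The means were 117 ± 31.8, 239 ± 73.4 and 387 ± 76.1 CPM (SD, n = 5), or 2.03-fold higher in Mature and 3.35-fold higher in Senile than in Infancy on the log2 scale, against 1.46-fold and 1.96-fold for ZFP39.

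**Figure D1:**
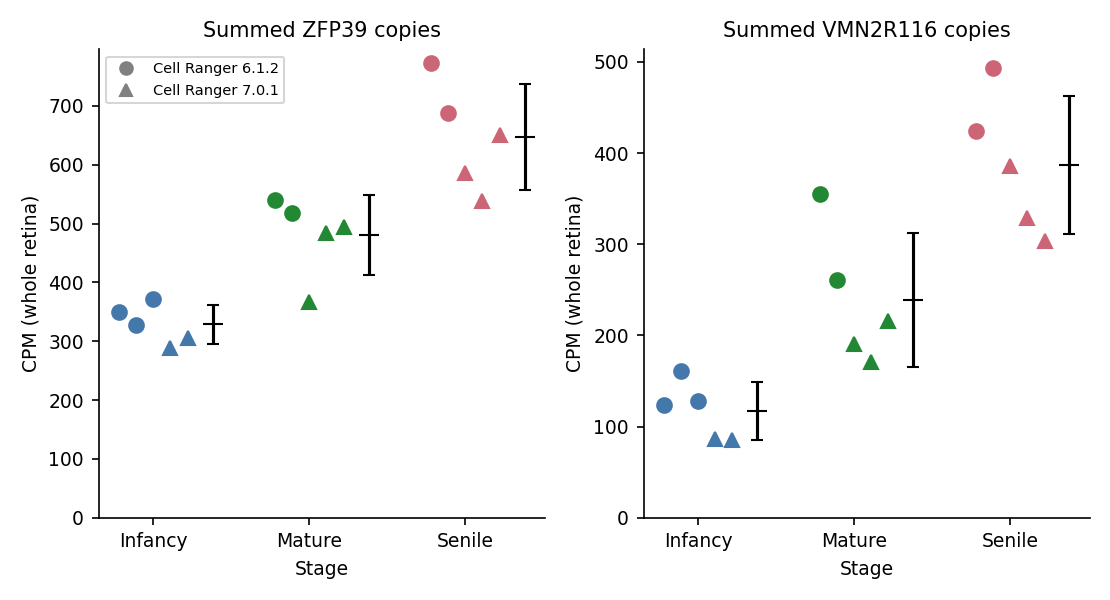
Summed UMIs of the ZFP39 (left) and VMN2R116 (right) copies in CPM of a retina, by stage. Each point is 1 retina, circles and triangles give the Cell Ranger version of the file header, and the black mark with its bar is the mean ± SD of 5 retinas; within each stage all circles lie above all triangles, and Senile retinas reach the highest values.

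Senile against Mature was not the contrast by which the copies were chosen, and it was tested. The Senile values had entered that choice through their contrast with Infancy, so the test is not independent of it. The ZFP39 sum was 0.43 ± 0.13 higher in Senile retinas on the log2 scale (difference ± SE), or 1.35-fold (2-sided exact permutation test, p = 0.0159, n = 5 and 5, smallest possible p 0.00794). All 5 Senile retinas lay above the Mature mean. The VMN2R116 sum was 0.72 ± 0.22 higher, or 1.65-fold (exact permutation test, p = 0.0238), again in 5 of 5 Senile retinas. Scaling to TMM library sizes in place of total UMIs ended both calls, with differences of 0.35 and 0.65 (exact p = 0.0556 for each). Within the libraries of Cell Ranger 6.1.2 the differences were 0.46 for ZFP39 and 0.59 for VMN2R116, and within those of 7.0.1 they were 0.41 and 0.82; these subsets cannot give an exact p below 0.333 and 0.1. Permuting stages only within a version, an analysis added after the data had been seen, gave p = 0.0167 for each symbol (exact). That is the smallest p these arrangements can give.

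In whole-retina sums, fewer cells of a type and less RNA per cell cannot be told apart. Marker genes of cones were also higher on average in Senile than in Mature libraries, with a summed mean of 1498 ± 299 CPM in Infancy, 1798 ± 954 in Mature and 2213 ± 551 in Senile (SD, n = 5 each; 10 markers, 3 of them at 0 throughout). The ranges of the 3 stages overlapped (1137 to 1870, 699 to 3125 and 1563 to 2794). Summed RGC markers (10, of which 1 at 0 throughout) averaged 458 ± 288, 310 ± 158 and 545 ± 255 CPM, with overlapping ranges of 83.5 to 756, 182 to 537 and 290 to 944. They were thus higher in Senile than in Mature, but also higher in Infancy than in Mature. The mitochondrial feature MT-ND1li1 averaged 577 ± 516, 538 ± 331 and 1115 ± 1155 CPM, and antisense features together 57593 ± 13289, 48653 ± 4654 and 59639 ± 7754. The part of these shifts in the sums was not tested. The cell classes are therefore described one by one further on.

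The version named in the file header moved with both symbols inside every stage. ZFP39 sums were 0.26 higher on the log2 scale, or 1.20-fold, in libraries of version 6.1.2 than in those of 7.0.1 (exact permutation of versions within stages, 1000 arrangements, p = 0.003). VMN2R116 sums were 0.59 higher, or 1.51-fold (exact permutation test, p = 0.001, the smallest the arrangements can give). The VMN2R116 difference was 0.67 in Infancy, 0.67 in Mature and 0.44 in Senile, and the ranges of the versions did not overlap in any stage for either symbol. Of the 67 copies that passed the filter on low counts, 59 lay higher under 6.1.2, beside 41.4% of all features tested, with a median log2 difference of 0.49 beside -0.12 over all features. Of the 8 most counted ZFP39 copies, ZFP39li30 (-0.07), li28 (-0.14) and li31 (-0.32) were not among the 59, while li46 was 0.12, li32 0.36, li22 0.44, li40 0.66 and li23 0.78 higher. Versions also differed in depth, with median UMIs per nucleus of 1461 to 3064 in libraries of 6.1.2 and 2267 to 5589 in those of 7.0.1, and their part in the result was not tested. Each stage held both versions, with 2 or 3 libraries of each. In the order of the series, all libraries of 6.1.2 came before all libraries of 7.0.1. The version therefore cannot be told apart from anything else that differed between these 2 blocks of samples.

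The 8 most counted ZFP39 copies held level and steep ones. The 5 copies ZFP39li30, li46, li28, li32 and li31 stayed level: their summed mean was 221 CPM in Infancy, 214 in Mature and 219 in Senile. ZFP39li40, li22 and li23 together went from 26.2 in Infancy to 99.5 in Mature and 166 in Senile, which was 43.8% of the difference between the Senile and Infancy means of the symbol. Their share of the ZFP39 UMIs was 7.97% in Infancy and 25.6% in Senile, against 67.3% and 33.9% for the 5 level copies. The copies were sorted into these groups after their values had been seen. Outside the 8, ZFP39li20 was high or low by retina within each stage, and it too was named after its values had been seen. It held 20.2, 1.34, 23.8, 0.394 and 0.550 CPM in Infancy. In Mature retinas it held 1.65, 29.0, 0.884, 1.14 and 21.7 CPM, and in Senile ones 41.5, 38.5, 2.15, 1.48 and 31.2.

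ZFP39li30, the copy with the most UMIs, is the example of a level one. Its Infancy values were 77.1, 80.4, 84.8, 68.3 and 91.3 CPM, its Mature values 72.3, 71.7, 83.5, 83.5 and 97.0, and its Senile values 77.3, 73.7, 65.1, 77.5 and 77.0. The 3 ranges lay on top of each other, and Senile was 0.21 ± 0.11 lower than Mature on the log2 scale (edgeR quasi-likelihood test, adjusted p = 0.871). ZFP39li46 was as level, at 39.9 to 47.1 in Infancy, 33.1 to 59.0 in Mature and 31.5 to 50.2 CPM in Senile.

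ZFP39li22 was the clearest of the steep copies. The Infancy retinas held 8.97, 9.32, 6.28, 4.16 and 5.37 CPM, the Mature retinas 34.7, 28.7, 15.3, 25.1 and 34.1, and the Senile retinas 52.1, 47.7, 51.8, 35.3 and 51.8. No stage overlapped with another. Its log2 fold change was 1.99 ± 0.28 (SE) for Mature against Infancy and 0.70 ± 0.27 for Senile against Mature, the latter with an adjusted p of 0.871 over all features tested by edgeR. ZFP39li40 held 18.0, 20.4, 20.9, 12.3 and 11.8 CPM in Infancy, 78.3, 67.1, 27.6, 51.7 and 38.2 in Mature and 121, 68.1, 86.0, 63.9 and 69.1 in Senile retinas. Its Mature 3 was close to the Infancy range, and Mature 1 lay above 3 of the Senile retinas. ZFP39li23 held 1.43 to 3.80 CPM in Infancy, 12.8 to 32.4 in Mature and 26.0 to 45.4 in Senile. For both copies the Infancy range stood apart from the later ones, while Mature and Senile overlapped.

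Among the VMN2R116 copies the contrast was less sharp. VMN2R116li130, li90, li13 and li32 together went from 30.1 CPM in Infancy to 131 in Mature and 213 in Senile, 67.6% of the difference between the Senile and Infancy means of the symbol. VMN2R116li15, li77, li68 and li37 together held 62.4, 60.9 and 93.7, near each other in Infancy and Mature and higher in Senile, with 22.1% of the difference between the Senile and Mature means. The first 4 made up 25.7% of the VMN2R116 UMIs in Infancy and 54.9% in Senile. This grouping too was made after the values had been seen.

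VMN2R116li130, the copy with the most UMIs, held 16.5, 26.5, 11.5, 7.48 and 8.82 CPM in the Infancy retinas. It held 119, 69.6, 67.4, 52.0 and 62.9 in the Mature retinas and 130, 153, 98.7, 102 and 78.4 in the Senile retinas. Every Infancy retina lay below every later one, and Mature 1 lay among the Senile retinas. The log2 fold change was 2.36 ± 0.37 for Mature against Infancy and 0.51 ± 0.35 for Senile against Mature (edgeR, adjusted p = 0.905 for the latter). VMN2R116li90 held 19.2, 22.8, 11.8, 9.67 and 8.51 CPM in Infancy, 75.2, 53.4, 29.2, 25.4 and 35.5 in Mature and 91.3, 105, 67.0, 64.5 and 60.0 in Senile retinas. Here too Infancy stood apart and Mature 1 was the single Mature retina inside the Senile range. VMN2R116li13 showed the widest spacing of the leading copies, with 0.262 to 0.806 CPM in Infancy, 2.18 to 13.2 in Mature and 8.79 to 20.8 in Senile. Of the second group, VMN2R116li15 held 20.2 to 26.2, 14.5 to 27.0 and 25.6 to 38.3 CPM, and its log2 difference between Senile and Mature was 0.50 ± 0.19 (edgeR, adjusted p = 0.871), close in size to that of VMN2R116li130. VMN2R116li37 was set by 1 retina in the Senile stage, where Senile 3 held 84.1 CPM and the other 4 between 18.9 and 29.9.

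**Figure D2:**
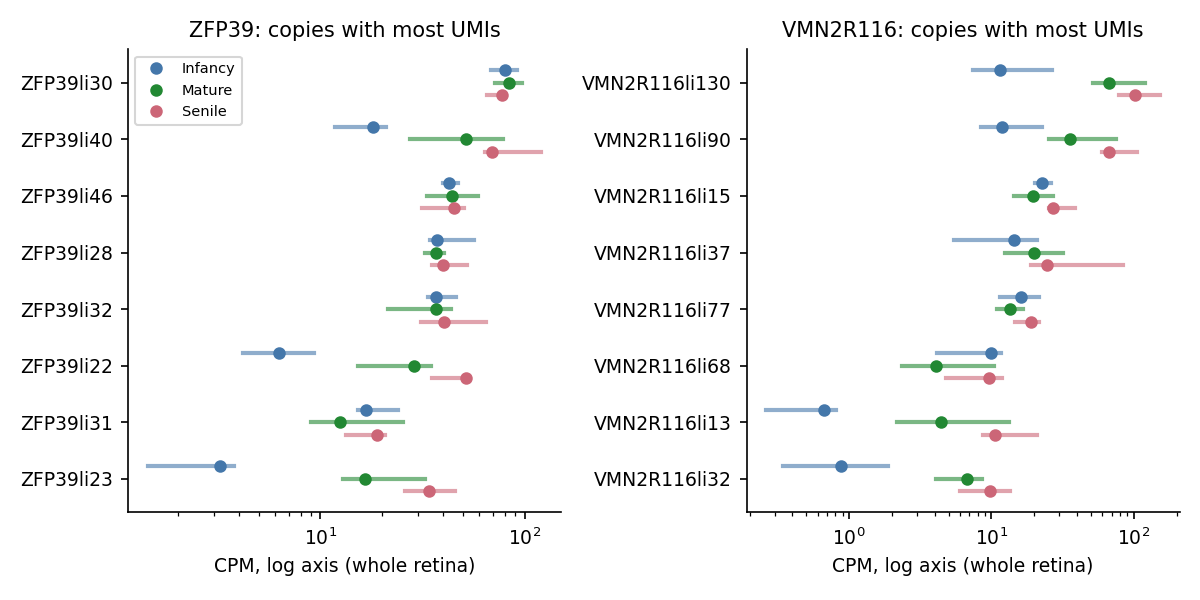
CPM (log axis) of the 8 copies with the most UMIs of ZFP39 (left) and VMN2R116 (right) in whole retinas. Points are medians and lines the lowest to highest of 5 retinas of a stage; copies such as ZFP39li22 and VMN2R116li130 separate Infancy from the later stages, while ZFP39li30 and VMN2R116li15 do not.

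The edgeR fit of whole retinas tested 28977 features, among them 67 of the copies: 40 of ZFP39 and 27 of VMN2R116. Of the remaining 123 copies, 97 had no UMI and 26 had too few for the filter, at most 257 over all retinas. Between Mature and Infancy, 19 of the 67 copies passed an adjusted p of 0.05, all of them higher in Mature, beside 0.411% of all features that passed as higher. Between Senile and Infancy, 31 passed, all higher in Senile, beside 0.901%. These contrasts chose the copies, and nothing is read from the counts. Copies just inside the threshold for Senile against Infancy were ZFP39li5 and VMN2R116li6, with log2 fold changes of 2.45 and 2.23, and VMN2R116li59 and VMN2R116li107 just outside had 3.45 and 2.29.

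Between Senile and Mature, 0 of the 67 copies passed in edgeR, as did 0% of all features. On simulated counts this comparison found 8% of true 2-fold rises and 0% of 1.5-fold rises. Differences of that size would therefore mostly be missed. At an unadjusted p under 0.05 there were 15 of the 67 copies, beside 5.65% of all features, and DESeq2 passed 1 copy, VMN2R116li51, among 20 features (0.069% of all). The log2 fold change was above 0 for 59 of the 67 copies, beside 52.9% of all features, with a median of 0.53 beside 0.03 over all features. The medians were 0.53 for ZFP39 and 0.63 for VMN2R116 copies. For 6 of the 67 copies every Senile retina lay above every Mature one, beside 0.711% of all features, and no copy had the reverse order (0.148%). These were ZFP39li22, ZFP39li39, ZFP39li44, VMN2R116li5, VMN2R116li6 and VMN2R116li51, named after their values had been seen. Copies enter this count only if they passed the filter on low counts, and the 2 symbols were known to be high in Senile retinas when they were chosen.

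The 6 copies ranged from ZFP39li22, among the 8 most counted of its symbol, to VMN2R116li51 with 895 UMIs in all. VMN2R116li51 held 0.245, 0.307, 0.218, 0.373 and 0.236 CPM in Infancy, 1.85, 1.43, 0.589, 1.17 and 1.98 in Mature and 4.90, 3.57, 2.85, 5.69 and 5.85 in Senile retinas. Each stage lay wholly above the one before, and its log2 difference between Senile and Mature, 1.62 ± 0.33 (SE), was the highest of these 6. ZFP39li39 held 10.3, 9.83, 6.99, 9.65 and 8.87 CPM in the Mature and 16.0, 17.1, 13.0, 14.8 and 16.4 in the Senile retinas, with Mature 3 and Senile 3 the lowest of their stages. ZFP39li44 held 4.31, 3.83, 2.10, 2.61 and 2.93 CPM in Mature and 9.62, 10.4, 5.29, 6.08 and 5.03 in Senile retinas. VMN2R116li5 and VMN2R116li6 held at most 4.75 and 4.07 CPM in a Mature retina and at least 5.62 and 4.98 in a Senile one. For ZFP39li44 and both of these, Mature 1 and Mature 2, from libraries of Cell Ranger 6.1.2, were the highest of their stage. The log2 differences were 0.68 ± 0.21 for ZFP39li39, 1.12 ± 0.33 for ZFP39li44, 1.47 ± 0.43 for VMN2R116li5 and 1.27 ± 0.47 for VMN2R116li6 (edgeR, adjusted p = 0.871 for each).

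**Figure D3:**
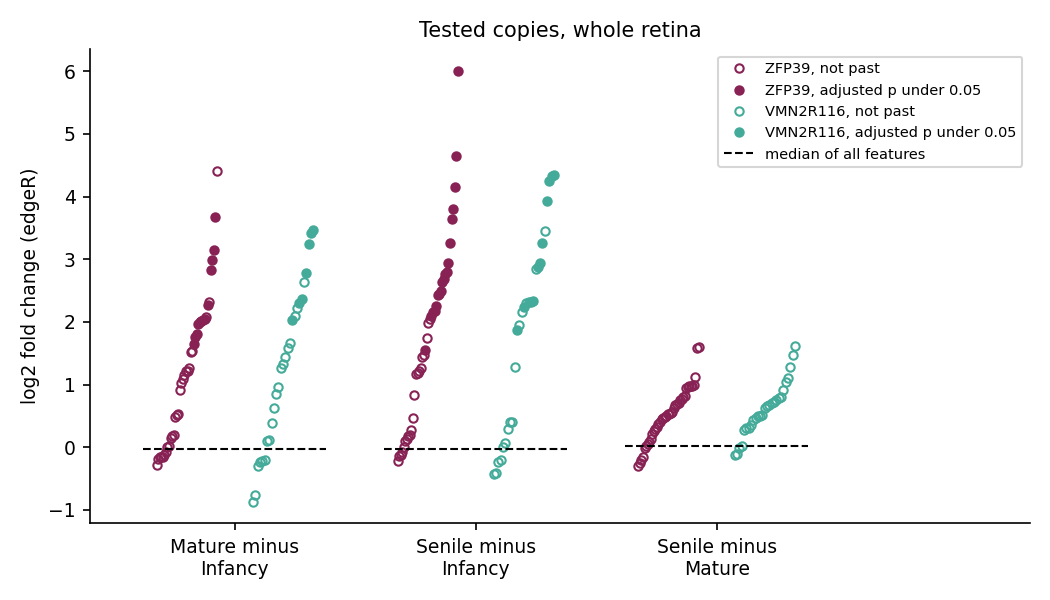
edgeR log2 fold changes of the 67 tested copies in whole retinas for the 3 stage comparisons, each set of points sorted by size; filled points passed an adjusted p of 0.05. The dashed line is the median of all 28977 features; 31 copies are filled for Senile minus Infancy and none for Senile minus Mature.

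To follow the sums within cell classes, nuclei were assigned by counts of detected marker genes: at least 3 markers of a class and at least 2 more than of any other. This gate took 54499 nuclei (45.5% of those kept, 38.2% to 57.1% per retina), and 17923 others fell just outside it. Cones, bipolar cells (BCs), horizontal cells (HCs), amacrine cells (ACs), retinal ganglion cells (RGCs), Müller cells and microglia had at least 10 gated nuclei in every retina. They numbered 16016, 15876, 1270, 1773, 4775, 12749 and 641 nuclei. Rods and astrocytes had that number in 14 and 13 retinas and are given as a description. The paper's own clustering held many times more ACs than this gate took. Its glial cells of all kinds were fewer than the gated Müller cells alone. A gated class is thus a range of nuclei set by markers, and not a cell type of the paper.

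Gated nuclei also held markers of other classes. In RGCs the median nucleus of a retina had 5 to 6 RGC markers and 5 to 12 markers summed over all other classes, and in cones 4 to 6 and 1 to 7. Exactly at the margin of 2 markers were 1528 of 1773 gated ACs and 8712 of 15876 BCs, against 2143 of 16016 cones. The median gated AC of a retina had 3 to 3.5 AC markers, and the AC markers GAD2 and SLC32A1 had 0 UMIs. Free RNA and doublets were not estimated, and their part in the class values was not tested.

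UMIs of ZFP39 copies were counted in nuclei of every class. RGCs, the output neurons of the retina, had the highest mean in Mature and Senile retinas, and ACs, the inhibitory interneurons, in Infancy (421 ± 51.8 CPM, SD, n = 5). RGCs held 407 ± 39.9 CPM in Infancy, 674 ± 92.5 in Mature and 870 ± 92.6 in Senile (SD, n = 5 each). Within retinas, RGCs were 0.44 ± 0.09 above the mean of the other 6 classes on the log2 scale (mean ± SD of 15 retinas), or 1.36-fold, and this held in 15 of 15 retinas. ACs were 1.20-fold above the other classes, also in 15 of 15. Cones, BCs and HCs were below the other classes in all 15 retinas, at 0.86-fold, 0.82-fold and 0.81-fold. All 5 differences had an adjusted p of 0.000122 (2-sided exact sign flips over 15 retinas, adjusted over 14 tests), the lowest of these tests. The class differences of a symbol are tied, since each class also enters the mean against which the others are set. They are therefore not separate support for each other. Microglia, the immune cells of the tissue, were 1.11-fold above (12 of 15 retinas, adjusted p = 0.0209), a call that ended when each nucleus was thinned to 1000 UMIs (adjusted p = 0.905). Müller cells, the main glia, were not distinguishable from the rest (0.97-fold, adjusted p = 0.249).

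VMN2R116 copies had another order, led in Mature and Senile retinas by cones, the dominant photoreceptors of the TS, and in Infancy by ACs (160 ± 31.5 CPM, SD, n = 5). Cones held 136 ± 52.6 CPM in Infancy, 396 ± 74.4 in Mature and 547 ± 97.4 in Senile (SD, n = 5 each). They were 0.62 ± 0.32 above the other classes on the log2 scale, or 1.54-fold, in 15 of 15 retinas, and BCs were lowest at 0.64-fold, below the others in all 15 (exact sign flips, adjusted p = 0.000122 for both). RGCs were 1.19-fold above (13 of 15, adjusted p = 0.000641), a call that ended within Cell Ranger 6.1.2 (log2 difference 0.08, exact sign flips, adjusted p = 0.119), and HCs 0.78-fold (2 of 15 above, adjusted p = 0.00104). The HC call ended with a looser gate (adjusted p = 0.383) and within Cell Ranger 7.0.1 (exact sign flips, adjusted p = 0.082). ACs were 1.20-fold above (11 of 15, adjusted p = 0.00709). That call ended after thinning, at a log2 difference of 0.24 in place of 0.26 (exact sign flips, adjusted p = 0.176). It also ended with a stricter gate (0.35), within 6.1.2 (0.25) and within 7.0.1 (0.27). Müller cells were 1.09-fold above (adjusted p = 0.0159), a call that ended within either Cell Ranger version (0.16 in 6.1.2 and 0.09 in 7.0.1, log2). Microglia, with 211 VMN2R116 UMIs in all and as few as 3 in a retina, did not differ detectably (adjusted p = 0.186).

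Some neighbours in these orders could not be separated. For ZFP39 the order by mean log2 level was RGCs, ACs, microglia, Müller cells, cones, BCs and HCs. ACs and microglia, cones and BCs, and BCs and HCs did not differ beyond their spread (exact sign flips, adjusted p = 0.234, 0.153 and 0.774 over 12 pairs). For VMN2R116 the order was cones, ACs, RGCs, Müller cells, microglia, HCs and BCs, and no neighbouring pair passed (adjusted p from 0.0586 to 0.868), cones and ACs differing by 0.31 ± 0.52 (SD). In the smaller classes, rods held 366 ± 117 and astrocytes 385 ± 118 CPM of ZFP39, and 153 ± 79.2 and 181 ± 85.9 of VMN2R116 (SD, n = 14 and 13 retinas).

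**Figure D4:**
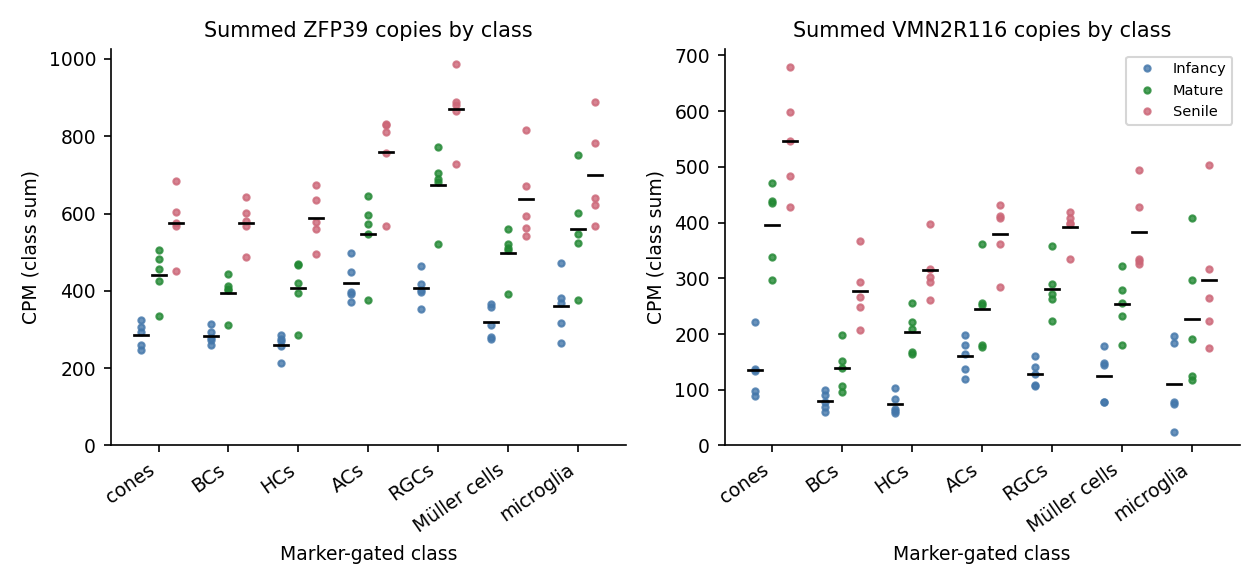
Summed UMIs of the ZFP39 (left) and VMN2R116 (right) copies in CPM of a marker-gated class. Points are single retinas, colours give the stage and black bars the mean of 5 retinas; the stage means step upwards in all 7 classes, and in Mature and Senile retinas RGCs have the highest mean for ZFP39 and cones for VMN2R116, while in Infancy ACs have the highest mean for both.

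The ratio of the 2 symbols within a class does not depend on the total by which counts are scaled. Cones had 0.359 to 1.12 VMN2R116 UMIs per ZFP39 UMI over the 15 retinas, with a median of 0.870, and BCs had 0.222 to 0.608, with a median of 0.354. The ratio was 2.04-fold higher in cones than in BCs of the same retina, in 15 of 15 retinas (exact sign flips, p = 6.1e-05). Against the mean of all other classes, the ratio was higher in cones (15 of 15 retinas, adjusted p = 0.000427 over 7 classes) and Müller cells (12 of 15, adjusted p = 0.00185) and lower in BCs (14 of 15, adjusted p = 0.000427), RGCs (12 of 15, adjusted p = 0.00908) and microglia (10 of 15, adjusted p = 0.0489). In microglia the ratio rested on 211 VMN2R116 and 599 ZFP39 UMIs in all and ran from 0.0769 to 0.677. As few as 3 VMN2R116 UMIs were counted in a retina there. The VMN2R116 class difference of microglia was 0.17 within Cell Ranger 6.1.2 and -0.63 within 7.0.1 (log2). In cones the median ratio was 0.410 in Infancy, 0.904 in Mature and 0.947 in Senile. This ratio was examined after the class sums had been seen.

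Single copies also had their own classes. VMN2R116li130 averaged 107 ± 70.1 CPM in cones and 103 ± 88.9 in microglia (SD, 15 retinas), against 53.9 to 75.4 in the other 5 classes. The microglia value rested on 97 UMIs in all, beside 8031 in cones. VMN2R116li32 averaged 15.0 in cones and 10.9 in Müller cells but 1.29 in BCs. VMN2R116li37 followed another pattern, with 36.9 in ACs and 34.6 in RGCs against 14.4 in cones, and was highest in cones in none of the 15 retinas. ZFP39li46 averaged 69.8 CPM in RGCs, its highest class in 13 of 15 retinas, and 26.1 in cones. ZFP39li28 was nearly even, at 36.6 to 42.6 in the 7 classes. These class values are descriptions over 15 retinas.

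Within classes the 3 stages kept their order for both symbols. Senile retinas were above Infancy retinas without overlap in every class for ZFP39, and in every class but microglia for VMN2R116. In cones the VMN2R116 sum was 3.03-fold higher in Mature and 4.20-fold higher in Senile than in Infancy. In HCs the same values were 2.71 and 4.21, and in ACs 1.50 and 2.39. For ZFP39 the range was narrower, from 1.80-fold in ACs to 2.26-fold in HCs for Senile against Infancy. Passing copies were counted in edgeR fits per class for Senile against Infancy, the contrast behind the choice of copies, and nothing is read from these counts. They were 26 of 47 tested in cones (1.13% of all features higher), 15 of 36 in BCs (0.785%), 20 of 48 in RGCs (0.904%), 16 of 40 in Müller cells (0.541%) and 4 of 7 in HCs (0.287%). In ACs 0 of 14 tested copies passed (0.122%), and no copy reached the filter in microglia. VMN2R116li130, VMN2R116li90, ZFP39li22 and ZFP39li40 passed in 5 classes each.

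Senile against Mature was tested for the class sums as well, an analysis added after the data had been seen. As with the whole-retina sums, the Senile values had entered the choice of copies, so these tests are not independent of it. All classes come from the same retinas, so they are not separate support for each other. All 7 classes had a higher Senile mean for both symbols, with log2 differences of 0.34 to 0.55 for ZFP39 and 0.46 to 1.02 for VMN2R116. In 6 of the 7 classes for each symbol the difference passed (exact permutation tests, 5 against 5 retinas, adjusted over 14 tests), the exception being microglia (adjusted p = 0.137 and 0.302). In BCs, the second-order neurons, ZFP39 went from 395 ± 49.7 to 576 ± 56.6 CPM and VMN2R116 from 138 ± 40.4 to 277 ± 59.0 (SD, n = 5; exact permutation, adjusted p = 0.0222 for each). These were the largest log2 differences of either symbol, 0.55 ± 0.11 and 1.02 ± 0.23 (SE). In cones the differences were 0.39 and 0.47. Both calls ended with totals without LINC-FRMD8-1, the feature with the most UMIs (0.33 and 0.41, exact permutation, adjusted p = 0.0648 for each). They also ended with TMM library sizes (0.31 and 0.39). The call also ended with a stricter gate for ZFP39 in HCs (0.46 in place of 0.55, adjusted p = 0.0505) and VMN2R116 in ACs (0.65 in place of 0.67, adjusted p = 0.130). Without LINC-FRMD8-1 it ended for ZFP39 in ACs (0.43 in place of 0.48, adjusted p = 0.0648, exact permutation for all). Leaving out 1 retina ended calls in cones, ACs, RGCs and Müller cells, and without Senile 1 only 2 of 7 classes passed for ZFP39 and 3 of 7 for VMN2R116.

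Whether a class differed from the others in its Senile against Mature difference was tested by permuting the stages of the class-minus-others values. None of the 14 tests passed after adjustment (exact permutation, lowest adjusted p = 0.111, for VMN2R116 in BCs, where the difference was 0.47 larger than in the other classes, with an unadjusted p of 0.00794). At an unadjusted p under 0.05 there were 2 of 14, both in BCs. In edgeR fits per class, 0 copies passed between Senile and Mature in any class, as did 0% of features, while DESeq2 passed ZFP39li9 and ZFP39li44 in BCs (0.121% of features there). The medians of tested copies were 0.34 in HCs, 0.43 in RGCs, 0.45 in ACs and Müller cells, 0.48 in cones and 0.71 in BCs.

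Noncoding and antisense features that carry the symbols in their names, but are not copies, had the same order of stages in their summed means. They are tied to the copies by name only, since no coordinates were used here. The 62 noncoding features named LINC-ZFP39 summed to 74.1 ± 26.1, 156 ± 37.2 and 232 ± 74.5 CPM in Infancy, Mature and Senile retinas, and the 86 named LINC-VMN2R116 to 18.5 ± 4.69, 63.3 ± 23.7 and 116 ± 17.0 (SD, n = 5). Of the 22 tested in each of these lists, 9 and 11 were higher in Senile than in Infancy in edgeR, beside the 0.901% of all features, and none was lower. Antisense features named after the 2 symbols passed as higher for 4 of 11 (ZFP39) and 5 of 15 (VMN2R116). Whether the counting used strand is not given in the sources used here, and whether reads of a copy were kept apart from antisense features was not tested. Of the 9 other vomeronasal receptor features, 4 were tested and 3 were higher in Senile than in Infancy: VMN2R26li5, VMN2R26li4 and VMN2R26li2. Their summed mean was 1.08 CPM in Infancy and 14.8 in Senile. All these features may share sequence with the copies. Senile against Infancy was the contrast behind the choice of copies, and a feature could pass the filter on low counts through its later stages alone. Nothing is read from these counts as a test.

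Zinc fingers other than ZFP39 and the genes of both pathways were set beside the copies. The 389 other features named ZNF or ZFP summed to 14556 ± 885, 15266 ± 1673 and 15044 ± 1537 CPM, and 11 of 301 tested (3.65%) were higher in Senile than in Infancy, beside 0.901% of all features, with none lower and a median log2 fold change of -0.01. Of the fixed list of KRAB silencing genes, 14 were in the annotation and 11 tested, and none passed in edgeR or DESeq2 in any of the 3 comparisons (between 0 and 2 at an unadjusted edgeR p under 0.05). TRIM28 was not among the 11 tested. The 2 between Senile and Mature were CHD4 (log2 fold change -0.90 ± 0.42, SE) and DNMT3A (-0.35 ± 0.12), both lower in Senile. SETDB1 had a log2 fold change of 0.09 ± 0.13 (SE) for Senile against Infancy and the DNA methyltransferase DNMT1 of -0.14 ± 0.14. Of the vomeronasal signalling genes, 7 were in the annotation and 3 tested, and none passed in either tool or at an unadjusted p under 0.05. TRPC2 had a log2 fold change of 0.64 ± 0.35 for Senile against Infancy, GNAO1 of -0.28 ± 0.22 and the chloride channel ANO1 of -0.38 ± 0.32. Over the 10269 numbered copies of other genes, 2728 were tested, and 2.27% passed between Senile and Infancy in either direction, with a median log2 fold change of 0.04. The 0.901% given for all features counts only those higher in Senile, so these 2 shares are not like for like.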

How the data were processed

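The authors isolated nuclei from frozen retinas, prepared 10x Genomics 3′ libraries, ran Cell Ranger against the genome TS_3.0 and deposited raw UMI counts per feature and barcode, with 1 matrix per retina. The methods name Cell Ranger 7.0, the submitters' processing notes 5.0.1 and 7.0.1, and the file headers 6.1.2 and 7.0.1. Whether intronic reads were counted is not given in the sources used here. Copies and gene lists were chosen with earlier results of these data known. Stage and replicate number came from the labels. The labels do not give sex, so it was left out of every model, whereas the paper's model of the age groups included it. Each retina stands for 1 animal, and p-values measure the spread between retinas.

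Barcodes passing the study's limits (200 to 6000 genes, under 5% mitochondrial UMIs, here by MT-ND1li1) were kept. No doublet caller was run, and the gate does not remove all nuclei with markers of several classes. CPM is 1000000 times a feature's UMIs over all UMIs of the retina or class. Sums were compared as log2 values with 0.5 UMI added, by 2-sided exact permutation or sign flips with Benjamini-Hochberg adjustment. Copies were tested with edgeR 4.0.16 (TMM, filterByExpr, quasi-likelihood, stage only; R 4.3.3) and DESeq2 1.42.0 as an alternative; other steps used Python 3.11.15, numpy 2.4.6 and pandas 2.3.3. The whole-retina fit was run on simulated counts with known changes between Senile and Mature. It found 64% of 4-fold rises, 8% of 2-fold rises, 0% of 1.5-fold rises and 52% of falls to 0.25-fold, with 1 false call. Named were, per symbol, the 8 copies with the most UMIs, the plain feature and any copy passing between Senile and Mature; others were named after their values were seen. Replicate numbers were not used as pairs. Deviations of same-numbered retinas correlated at 0.48, 0.55, -0.50, 0.21 and 0.38 between Mature and Senile, where 1 of 5 numbers correlated best with its own number, at 0.20 to 0.48 between Infancy and Senile, where none did, and at -0.50 to 0.67 between Infancy and Mature, where 4 of 5 did. Numbers 1 and 2 were Cell Ranger 6.1.2 and numbers 4 and 5 were 7.0.1 in every stage. UMIs limit precision for counting error only.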

Additional observations from a re-analysis of the deposited data

Results flagged for a closer look

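In groups of 5 retinas, a highest or lowest value was taken as standing apart when its gap to the nearest other exceeded 0.71 of the group's range, which chance gives in about 5% of groups; 7 of 96 groups examined had one. Among copies in whole retinas, Infancy 4 was high for ZFP39li28 (56.5 CPM, nearest 38.7), and Senile 4 was low for ZFP39li22 (35.3, nearest 47.7). Mature 1 was high for VMN2R116li130 (119, nearest 69.6), and Senile 3 was high for VMN2R116li37 (84.1, nearest 29.9). Infancy 5 was low for VMN2R116li68 (4.16, nearest 9.88). Among class sums, Senile 4 was low for ZFP39 in ACs (568 CPM, nearest 758) and Senile 5 was low for VMN2R116 in RGCs (334, nearest 397).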

How the results depend on the processing

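Differences here are on the log2 scale, and the cause of each change was not tested. The Senile against Mature difference of the whole-retina sums (ZFP39, then VMN2R116) no longer passed with TMM library sizes (0.35 and 0.65), scaled to the UMIs of other numbered copies (0.32 and 0.61), with the replicate number as a block (0.43 and 0.72, exact p = 0.0625 for each, the smallest a block of 5 pairs allows), within Cell Ranger 6.1.2 (0.46 and 0.59) and within 7.0.1 (0.41 and 0.82), where few splits exist. Leaving out 1 retina gave 0.34 to 0.49 and 0.62 to 0.88, all past. The replicate block gave 22 passing copies for Mature against Infancy and 38 for Senile against Infancy in place of 19 and 31, while the count over all features went from 133 to 153 and from 283 to 340.

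Class differences that changed were, for VMN2R116, HCs with a looser gate (-0.051) and within 7.0.1 (-0.18), ACs with a stricter gate (0.35), thinned to 1000 UMIs (0.24), within 6.1.2 (0.25) and within 7.0.1 (0.27), RGCs within 6.1.2 (0.082), Müller cells with a looser gate (0.033), within 6.1.2 (0.16) and within 7.0.1 (0.091), and microglia within 6.1.2 (0.17, opposite in sign) and within 7.0.1 (-0.63, now past). For ZFP39 they were Müller cells when thinned (0.012, opposite in sign) and microglia with totals without LINC-FRMD8-1 (0.050), a looser gate (0.11), thinning (0.029) and within 6.1.2 (0.086).

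Senile against Mature within classes no longer passed in cones with totals without LINC-FRMD8-1 (0.33 and 0.41), with TMM sizes (0.31 and 0.39) and, for VMN2R116, with a looser gate (0.45). It no longer passed for ZFP39 in HCs with a stricter gate (0.46) and in ACs without LINC-FRMD8-1 (0.43), nor for VMN2R116 in ACs with a stricter gate (0.65). With 1 retina left out, cones gave 0.29 to 0.47 and 0.37 to 0.55, ACs 0.36 to 0.58 and 0.56 to 0.82, RGCs 0.28 to 0.44 and 0.41 to 0.58, and for ZFP39 Müller cells 0.26 to 0.40 and microglia 0.21 to 0.46. Calls ended without Mature 3, Mature 4, Senile 1, Senile 2, Senile 3 or Senile 5 in cones and for ZFP39 in ACs, without the first 5 of these for VMN2R116 in ACs, without Senile 1 in RGCs, and without Mature 3, Mature 4 or Senile 1 for ZFP39 in Müller cells. Microglia passed for ZFP39 without Mature 5. BCs kept both calls under every alternative run.

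Counts of passing copies changed by over 1.5 times for Mature against Infancy with DESeq2 (29) and a version term (34), and ran from 12 (without Infancy 5) to 20 with 1 retina left out. The count over all features moved as well, from 133 to 452 with DESeq2, 288 with the version term and 85 without Infancy 5. For Senile against Mature DESeq2 gave 1 in whole retinas and 2 in BCs. With 1 retina left out, the Senile against Mature value of ZFP39li28 ran from -0.0030 (without Senile 5) to 0.13, and that of ZFP39li31 from -0.11 (without Mature 4) to 0.25, with -0.03 and -0.0069 without Mature 1 and 2. Fits leaving out 1 retina were not run for HCs and microglia. Depth limits copies below the filter and microglia, with 3 to 33 VMN2R116 UMIs per retina.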
